A study of Homo sapiens with 7 samples.

Results

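The sites described here lie in windows around 8 genes of receptor tyrosine kinases, KDR, TEK, INSR, IGF1R, FLT1, EGFR, ERBB2 and ERBB3. Members are all peaks of the deposited lists that share at least 1 bp with a fixed hg19 window around each gene. The rule itself uses only position. The windows were 130 to 420 kb long and together covered 1.90 Mb. They held 188 of the 104751 peaks in the 3 replicate lists, namely 77 of 41303 in replicate 1, 90 of 45216 in replicate 2 and 21 of 18232 in replicate 3. Of the peaks called against IgG, 15 of 7506 in replicate 2 and 0 of 1 in replicate 3 lay in the windows. Each window is named after its gene but also reaches into its surroundings. In the order of protein-coding genes that RefSeq gives on GRCh38.p14, ERBB2 stands between PGAP3 and MIEN1, ERBB3 between RPS26 and PA2G4, and KDR between KIT and SRD5A3. No annotation of hg19 was used here, so no site was assigned to a gene, promoter or intron.

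Chromatin came from C4-2B, a prostate cancer cell line descended from LNCaP that grows despite androgen withdrawal. Cells were kept in charcoal-stripped serum, from which steroid hormones have been removed, without further treatment. The 7 libraries were 3 precipitations of HOXB13 carrying an acetyl group on lysine 13 (HOXB13-K13ac), 2 IgG precipitations and 2 inputs. All groups share this 1 cell line and medium, so there is no hormone-treated or HOXB13-deficient group to compare. Replicate 1 belongs to library series 2898 and both other replicates to 3047, and nothing in the labels says whether they came from separate cultures. The lists hold no read counts, so library depths are unknown. Each peak has a fold enrichment, the authors' ratio of signal at its summit to the local background, and a −log10 q, where q is the p-value adjusted for the number of tests. The lists of replicates 2 and 3 used below were called against input, while no control is named for replicate 1. Replicate 3 stands apart from the others, with a median peak width of 235 bp over its whole list, against 555 bp in replicate 1 and 635 bp in replicate 2. In the names of the lists of replicates 1 and 3, the part that names the library differs by a single punctuation mark, on which their assignment rests.

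Receptor tyrosine kinases are single-pass membrane proteins that bind a ligand outside the cell and phosphorylate tyrosines inside it, which passes growth and survival signals to kinases such as those of the MAPK and PI3K pathways. KDR and FLT1 are receptors of the vascular endothelial growth factors and TEK is the receptor of the angiopoietins, and all 3 are best known from endothelial cells. INSR and IGF1R are the receptors of insulin and the insulin-like growth factors. EGFR, ERBB2 and ERBB3 pair with one another, ERBB2 having no known ligand of its own and ERBB3 having weak kinase activity. HOXB13 is a homeodomain protein that binds DNA and is typical of prostate cells. Closely spaced regulatory sites with strong signal are known as super-enhancers.

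Promoter letters are printed for 3 of the genes because their windows stand at opposite ends of the counts below, before scaling by length. KDR and TEK had no site found in several libraries, and IGF1R, with the longest window, had the most. Per Mb, the ERBB3 and ERBB2 windows held more sites than that of IGF1R. The letters printed are those of KDR, TEK and IGF1R. These letters are the 250 bases before the first start listed for the gene by RefSeq on GRCh38.p14, 5′ to 3′ on the gene's strand. They lie at chr4:55125596-55125845 (minus strand) for KDR, chr9:27108975-27109224 (plus) for TEK and chr15:98648289-98648538 (plus) for IGF1R. Capitals mark a match to a searched motif. The strings CAATAAA of HOXB13, TGTTTAC of forkhead factors and AGAACA of the androgen receptor were searched on both strands, and no matches overlapped in these letters.
KDR: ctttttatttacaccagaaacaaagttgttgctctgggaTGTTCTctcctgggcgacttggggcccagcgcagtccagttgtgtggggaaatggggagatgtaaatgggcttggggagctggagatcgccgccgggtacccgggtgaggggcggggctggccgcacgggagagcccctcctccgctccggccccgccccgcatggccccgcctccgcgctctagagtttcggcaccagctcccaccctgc
TEK: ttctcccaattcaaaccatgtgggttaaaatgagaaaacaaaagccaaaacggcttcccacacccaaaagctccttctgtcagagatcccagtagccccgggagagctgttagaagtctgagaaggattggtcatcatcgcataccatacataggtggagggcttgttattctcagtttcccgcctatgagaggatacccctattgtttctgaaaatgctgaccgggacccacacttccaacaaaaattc
IGF1R: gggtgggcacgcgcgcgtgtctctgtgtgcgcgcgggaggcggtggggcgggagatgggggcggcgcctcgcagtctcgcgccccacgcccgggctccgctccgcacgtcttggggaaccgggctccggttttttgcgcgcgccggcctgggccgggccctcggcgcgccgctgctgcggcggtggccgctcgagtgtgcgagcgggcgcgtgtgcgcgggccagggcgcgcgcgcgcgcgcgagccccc
The single match was AGAACA, read on the opposite strand, 211 bases before the start of KDR. Over 35116 RefSeq promoters, 12.4% held AGAACA in this stretch, 3.67% CAATAAA and 2.98% TGTTTAC. The G and C content was 65.2% for KDR, 46.4% for TEK and 81.2% for IGF1R, against a median of 58% over all promoters. The first listed starts of INSR, FLT1, EGFR and ERBB2 had 78.4%, 73.2%, 73.6% and 65.6% and no match. The ERBB3 promoter was not analysed here. Because the peaks are on hg19, they were not placed on these letters.

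Peaks of the 3 replicate lists were merged where they shared 1 bp, and a merged region with peaks of at least 2 libraries is called a replicated site. The 8 windows held 116 regions, of which 56 were replicated sites (48.3%, exact 95% interval 38.9 to 57.7), against 41.2% of the 65675 regions on all chromosomes. All 56 held peaks of replicates 1 and 2, which belong to different library series, and 8 of them also held a peak of replicate 3. These 8 were 6.90% of the regions (3.02 to 13.1), against 6.99% on all chromosomes, and 14.3% of the replicated sites (6.38 to 26.2), against 17.0%. Leaving out replicate 1, so that both libraries of series 3047 had to share a site, gave 8 sites, and leaving out replicate 2 also gave 8. The shares of sites in all 3 libraries lie near those of the whole lists.

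Scaled by length, the windows held more replicated sites than the genome on average. Their density was 29.5 sites per Mb (exact 95% Poisson interval 22.3 to 38.3), against 9.02 per Mb on all chromosomes, a ratio of 3.27. The sum hides a wide spread, from 0 sites around KDR and TEK to 84.6 per Mb around ERBB3. In falling order the densities were 84.6 for ERBB3 (42.2 to 151), 69.2 for ERBB2 (31.7 to 131) and 38.1 for IGF1R (21.8 to 61.9). Then followed 25.0 for INSR and 25.0 for EGFR (10.1 to 51.5 each), 20 for FLT1 (7.34 to 43.5), and 0 for KDR (up to 26.3) and TEK (up to 16.8). Neighbours in this order have overlapping intervals, and no test was made of one window against another. Intervals here reflect only the error of counting, and peaks close together are not independent observations. No test was made between the windows and the rest of the genome; the windows sit on genes, whereas the rest includes gene-poor stretches and assembly gaps.

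**Figure D1:**
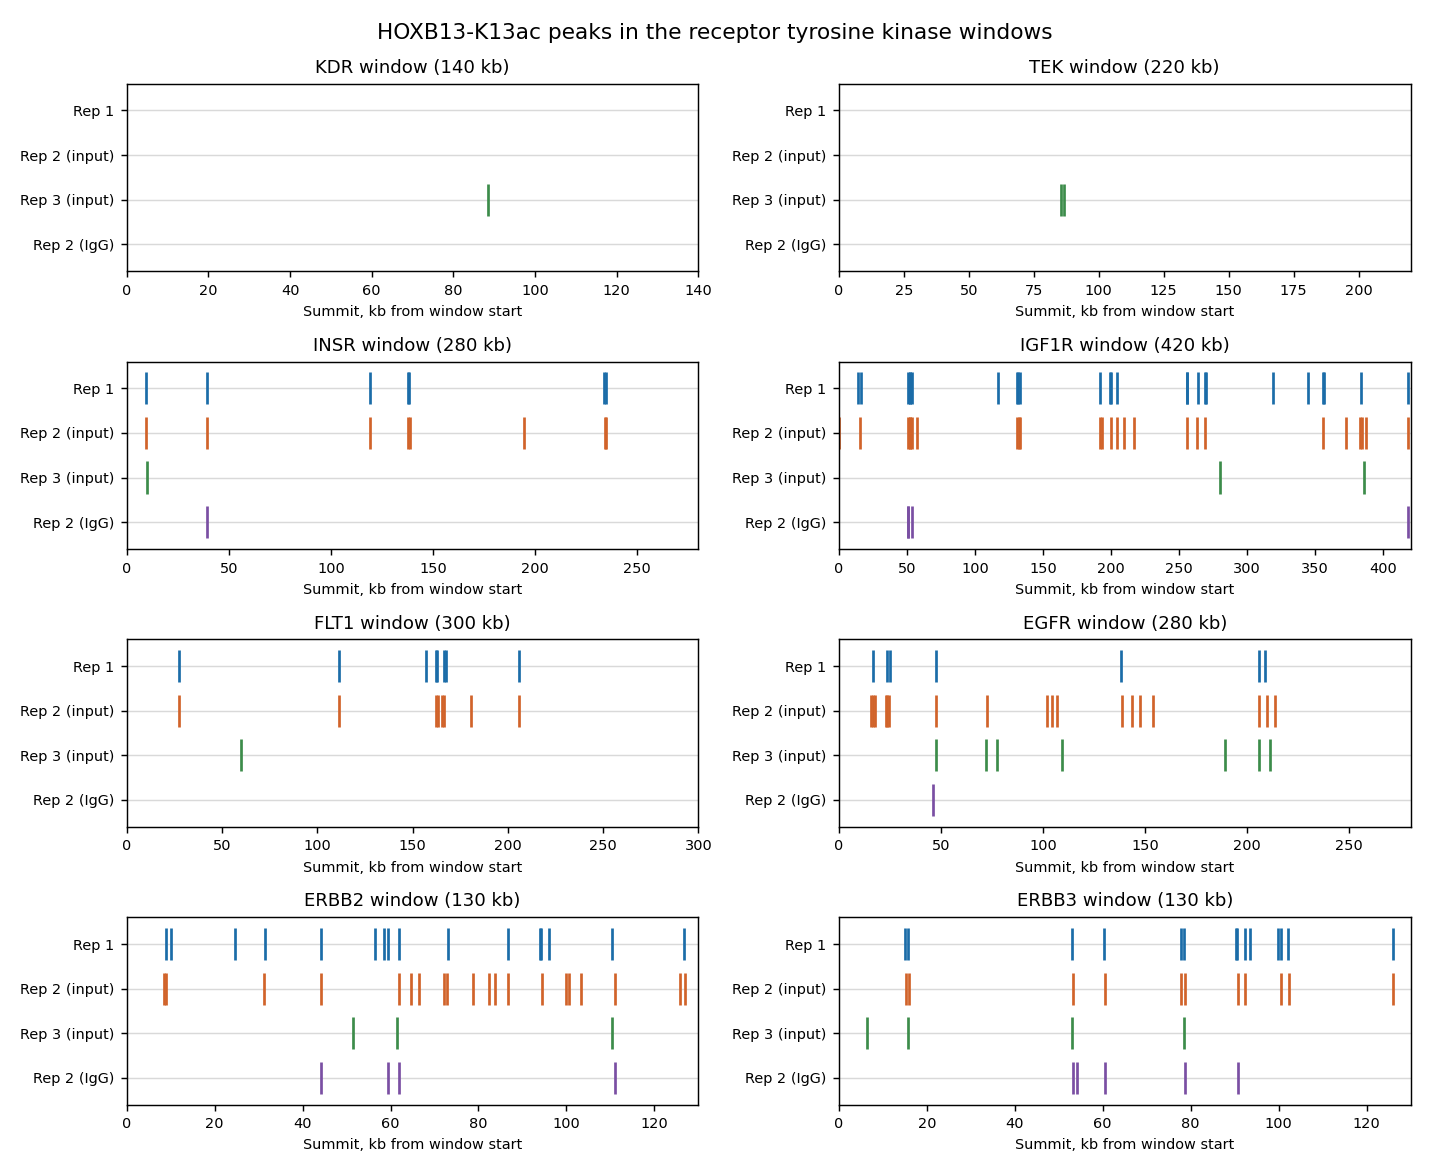
Summits of peaks (vertical lines) along each of the 8 windows, in kb from the window's start, for the lists of replicate 1, replicate 2 and replicate 3 against input and replicate 2 against IgG (Rep, replicate). KDR and TEK hold only 1 and 2 peaks of replicate 3, whereas the other windows hold the 56 sites where peaks of replicates 1 and 2 overlap, with summits 100 bp apart or less at 31 of them.

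The folds of the window sites lay close to or below those of replicated sites in general. Their median was 5.03 in replicate 1 (2.68 to 22.5), 8.68 in replicate 2 (3.57 to 28.7) and, at the 8 sites with its peaks, 4.70 in replicate 3 (3.70 to 6.76). Over all replicated sites the medians were 5.83, 9.37 and 5.07. Only 7 of 56 sites (12.5%) were among the highest 10% of folds of the replicate 1 list, against 14.9% of all replicated sites, and 9 of 56 (16.1%) in replicate 2, against 16.7%. Replicate 2 had the higher fold of the pair at 48 of 56 sites (85.7%), against 88.3% on all chromosomes. Summits of replicates 1 and 2 were 100 bp apart or less at 31 of 56 sites (55.4%), against 57.9%, and their median distance was 88 bp, against 80 bp. Window peaks with a −log10 q of 5 or more numbered 64 of 77 in replicate 1, 61 of 90 in replicate 2 and 2 of 21 in replicate 3. Over the whole lists these shares were 80.7%, 67.2% and 6.28%.

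The vascular receptors KDR and TEK had no replicated site in their windows. The KDR window, on chromosome 4 from 55900001 to 56040000, held 0 peaks of replicate 1 and 0 of replicate 2. Its single peak, of replicate 3, lay from 55988302 to 55988509 where the fold was 4.96 and the −log10 q 2.79. In the TEK window, on chromosome 9 from 27060001 to 27280000, replicates 1 and 2 again had 0 peaks and replicate 3 had 2. These lay side by side, at 27145456 to 27145605 (fold 3.80, −log10 q 1.49) and 27146420 to 27146609 (fold 4.20, −log10 q 1.95). The same pairs of fold and q recurred at 2 replicate 3 peaks of the EGFR window that no other replicate shared. Such empty windows are common. When the chromosomes were cut into tiles of the same length, 55.7% of the tiles of the KDR length and 46.6% of the TEK length held no replicated site, and on the genes' own chromosomes 66.6% and 52.3%. The upper limits of 26.3 and 16.8 sites per Mb exceed the genome's 9.02, so a lower density than average was not detectable in windows of this size.

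FLT1, the other receptor of vascular endothelial growth factors, had sites with low folds, and the interval of its density overlaps that of KDR. Its window, on chromosome 13 from 28820001 to 29120000, held 8, 8 and 1 peaks in replicates 1, 2 and 3, which formed 6 replicated sites. At least as many were found in 17.2% of tiles of this length, and in 9.43% of those on chromosome 13. Of these 6, 3 lay within 4.97 kb, from 28981917 to 28986887. The site at 28981917 to 28982659 had a fold of 4.96 in replicate 1 and 5.30 in replicate 2, and the next, at 28982719 to 28983605, 4.65 and 4.55. The site at 28985560 to 28986887 had 4.16 in replicate 1 and 9.10 in replicate 2, the highest replicate 2 fold of this window. No FLT1 site exceeded a fold of 4.96 in replicate 1, and none was called against IgG or shared with replicate 3. With lists of equal length 1 FLT1 site was left, and without replicate 1 or without replicate 2 there were 0.

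**Figure D2:**
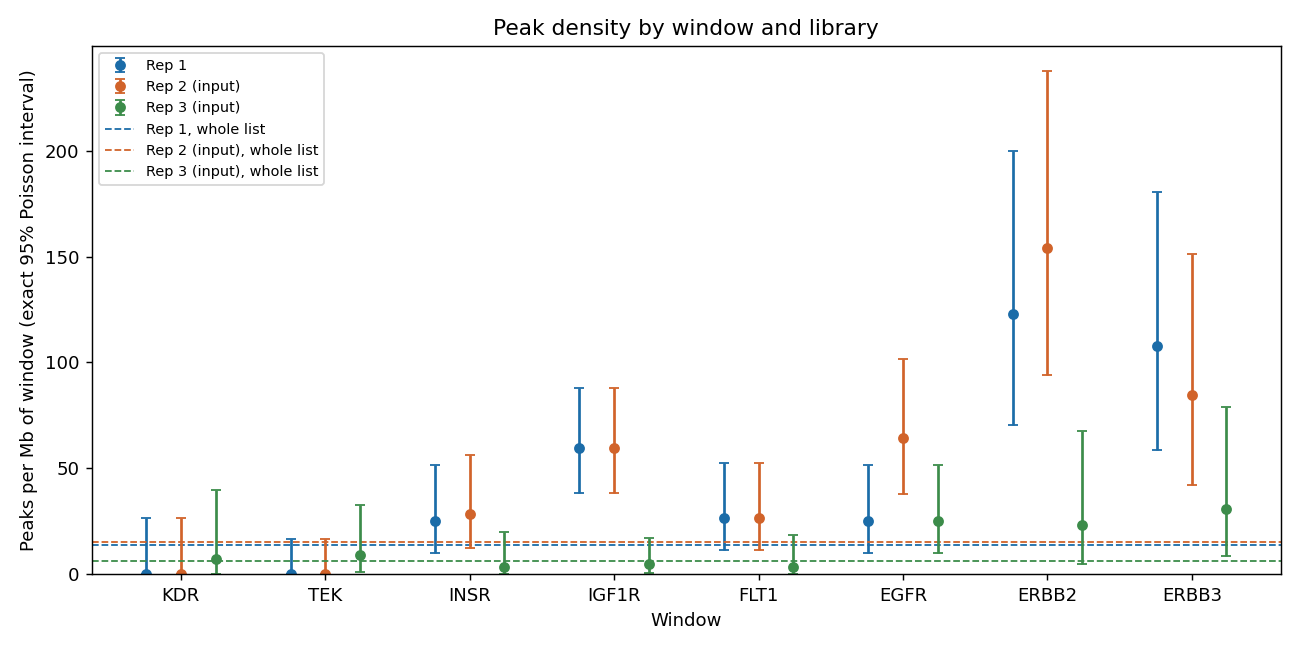
Peaks per Mb of window (points) with exact 95% Poisson intervals (bars) for each gene's window in replicates 1, 2 and 3, and the mean of each whole list (dashed lines). ERBB2 and ERBB3 lie above 80 peaks per Mb in replicates 1 and 2, and KDR and TEK lie at 0 in both.

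INSR and IGF1R, the insulin family, both had replicated sites. Their densities have overlapping intervals, and the order of the pair turned with lists of equal length, which left 5 sites in the 280 kb of INSR and 6 in the 420 kb of IGF1R. Median folds were 5.82 in replicate 1 and 8.38 in replicate 2 for INSR, and 4.27 and 6.57 for IGF1R. The INSR window, on chromosome 19 from 7060001 to 7340000, held 7, 8 and 1 peaks in replicates 1, 2 and 3. All 7 replicate 1 peaks lay in the replicate 2 list, against 76.9% over that whole list, and formed 7 sites. Chromosome 19 had 25.3 replicated sites per Mb as a whole, so the 25.0 of INSR was 0.989 of its chromosome's density. At least as many sites were found in 12.3% of all tiles of this length but in 46.7% of those on chromosome 19. The leading site, at 7069320 to 7070277, was in all 3 libraries, with folds of 16.1 in replicate 1, 14.2 in replicate 2 and 4.34 in replicate 3. Only 2.41% of the replicate 1 list, but 16.2% of the replicate 2 list, had a fold as high. Its summits in replicates 1 and 2 were 12 bp apart. The site at 7098752 to 7100045 had 9.31 in replicate 1 and 9.10 in replicate 2, and that at 7293202 to 7294455 had 8.95 and 14.3. Without replicate 1 or without replicate 2, INSR had 1 site.

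The IGF1R window, on chromosome 15 from 99140001 to 99560000, is the longest and held the most sites, 16. Replicates 1 and 2 had 25 peaks each, of which 16 of each list were shared (64.0%, 42.5 to 82.0), against 76.9% of the replicate 1 list and 62.9% of the replicate 2 list. A further 9 regions were found in replicate 1 alone, 9 in replicate 2 alone and 2 in replicate 3 alone, so no site was in all 3 libraries. Tiles of this length held at least 16 sites in 3.96% of cases, and on chromosome 15 in 5.15%. Of the 6 clusters of at least 3 sites in all windows, made by stitching sites 10 kb apart or less, 3 lay here. The largest held 4 sites in 4.33 kb, from 99190246 to 99194578, and 5.07% of all stitched groups held as many. Its first site, at 99190246 to 99191579, had folds of 16.5 in replicate 1 and 11.8 in replicate 2, and the one beside it, at 99191739 to 99192157, 9.13 and 10.7. The site with the highest replicate 2 fold lay at the far end of the window, at 99558090 to 99559153, with 11.1 in replicate 1 and 19.1 in replicate 2. The other 2 clusters, of 3 sites each, lay from 99270575 to 99273114 and from 99331423 to 99344724. Their folds were lower, at 2.76 to 6.30 in replicate 1 and 4.67 to 8.96 in replicate 2. Of 16 sites, 13 had the higher fold in replicate 2. Without replicate 1 or without replicate 2 the window had 0 sites, since no replicate 3 peak lay in a peak of the others, and with lists of equal length it had 6.

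The EGFR window, on chromosome 7 from 55040001 to 55320000, held 7, 18 and 7 peaks in replicates 1, 2 and 3. No other of the 8 windows had as many replicate 3 peaks before scaling by length. Per Mb, replicate 3 had 30.8 peaks in the ERBB3 window (8.38 to 78.8), 25.0 in that of EGFR and 23.1 in that of ERBB2 (4.76 to 67.4). All 7 replicate 1 peaks were in the replicate 2 list, while 7 of 18 replicate 2 peaks (38.9%, 17.3 to 64.3) were in the replicate 1 list, against 62.9% of that whole list. The 7 peaks of replicate 3 gave 25.0 per Mb (10.1 to 51.5), against 6.08 in its whole list, but only 2 of them lay in peaks of the other replicates. Over all windows 8 of 21 replicate 3 peaks did (38.1%, 18.1 to 61.6), against 30.8% of its whole list. The 7 replicated sites are matched or exceeded by 12.3% of tiles of this length and by 10.8% of those on chromosome 7. With summits 100 bp apart or less, or lists of equal length, 3 sites were left, and without replicate 1 or without replicate 2 there were 2.

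The strongest EGFR site, at 55086026 to 55088569, was in all 3 libraries, with folds of 11.6 in replicate 1, 16.3 in replicate 2 and 5.07 in replicate 3. Its summits were closely placed, at 55087454 in replicate 1 and 55087445 in both others. A second site of all 3 libraries, at 55244784 to 55246358, had folds of 6.73, 12.1 and 4.28 in replicates 1, 2 and 3. Beside it, the site at 55248043 to 55250898 had 6.82 in replicate 1 and 15.8 in replicate 2, with summits 676 bp apart. The only EGFR cluster of at least 3 sites, which held 3 from 55056493 to 55065449, showed folds of 2.77 to 4.61 in replicate 1 and 6.29 to 10.4 in replicate 2. The 11 regions of replicate 2 alone had folds between 2.39 and 6.62, and the 7 replicated sites had 3.57 to 16.3 in that replicate, so the ranges overlap.

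ERBB2 and ERBB3, the partners that signal together as a pair, had the densest windows. The ERBB2 window, on chromosome 17 from 37800001 to 37930000, held 16, 20 and 3 peaks in replicates 1, 2 and 3, which gave 9 replicated sites. They covered 16.2% of the window, against 1.10% of all chromosomes. Of tiles of this length 1.38% held at least 9 sites, and on chromosome 17, which had 17.9 sites per Mb, 4.65%. The replicate 2 list had 10 of the 22 regions here to itself and replicate 1 had 2. On all chromosomes these numbers were 16659 and 9360 of 65675. In this window 10 of 20 replicate 2 peaks lay in the replicate 1 list (27.2 to 72.8%), against 62.9% of that whole list. Of the replicate 1 peaks, 14 of 16 lay in the replicate 2 list (61.7 to 98.4%), against 76.9%. Each interval includes the share of its whole list.

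The widest of the 56 sites, 7735 bp from 37856151 to 37863885, lay in this window. It was 1 peak in replicate 2, with a fold of 23.7, and 4 peaks in replicate 1, with folds of 10.5, 3.13, 8.28 and 10.4 from left to right. Its replicate 3 peak had 3.70. The strongest ERBB2 site, at 37909796 to 37911632, was also in all 3 libraries, with folds of 18.1 in replicate 1, 25.2 in replicate 2 and 6.76 in replicate 3. Only 1.24%, 4.08% and 4.53% of these lists had a fold as high, and its replicate 3 peak was 1 of the 2 in all windows with a −log10 q of at least 5. The summits of this site in replicates 1 and 2 were 713 bp apart. The third named site, at 37843469 to 37845496, had 15.5 in replicate 1 and 19.9 in replicate 2 but no replicate 3 peak. No ERBB2 cluster held more than 2 sites, and the gaps between sites had a median of 11.8 kb. When peaks had to share 0.5 of both widths, 5 sites were left in this window, and without replicate 1 or without replicate 2 there were 2.

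The ERBB3 window, on chromosome 12 from 56420001 to 56550000, held 14, 11 and 4 peaks in replicates 1, 2 and 3. All 11 replicate 2 peaks lay in the replicate 1 list (100%, 71.5 to 100), against 62.9% of that whole list. Of the replicate 1 peaks, 13 of 14 lay in the replicate 2 list (92.9%, 66.1 to 99.8), against 76.9%. They formed 11 sites, 3 of them in all 3 libraries, against 17.0% of replicated sites on all chromosomes. The count was 3 without replicate 1 and 3 without replicate 2. Only 0.694% of tiles of this length held as many, and 0.875% of those on chromosome 12, whose mean was 10.03 sites per Mb.

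Folds were high in both libraries at the site from 56435536 to 56436852, with 22.5 in replicate 1, 18.9 in replicate 2 and 6.67 in replicate 3. That was the highest replicate 1 fold of all 56 sites, reached by 0.274% of its list, and the 3 summits lay at 56435819, 56435841 and 56435823. The highest replicate 2 fold, 28.7, belonged to the site from 56472742 to 56476343, which had 6.25 in replicate 1 and 5.34 in replicate 3. Replicate 2 thus ranked these 2 sites in the opposite order to replicates 1 and 3. Between 56497534 and 56523414 lay the largest cluster of all windows, 6 sites in 25.9 kb, and 1.403% of stitched groups held as many. It includes the site of all 3 libraries at 56498237 to 56499642, with folds of 8.35, 18.7 and 4.18 in replicates 1, 2 and 3. Further along, the site at 56509462 to 56511362 had 8.42 in replicate 1 and 24.1 in replicate 2, and that at 56521824 to 56523414 had 8.92 and 18.5. Of all stitched groups on the chromosomes, 11.9% held at least 3 sites, against 6 of the 33 groups that reach into the windows. A group of 2 at the right edge of ERBB3 includes a site outside its window. Without replicate 1 or without replicate 2 the windows held 0 clusters of at least 3 sites.

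**Figure D3:**
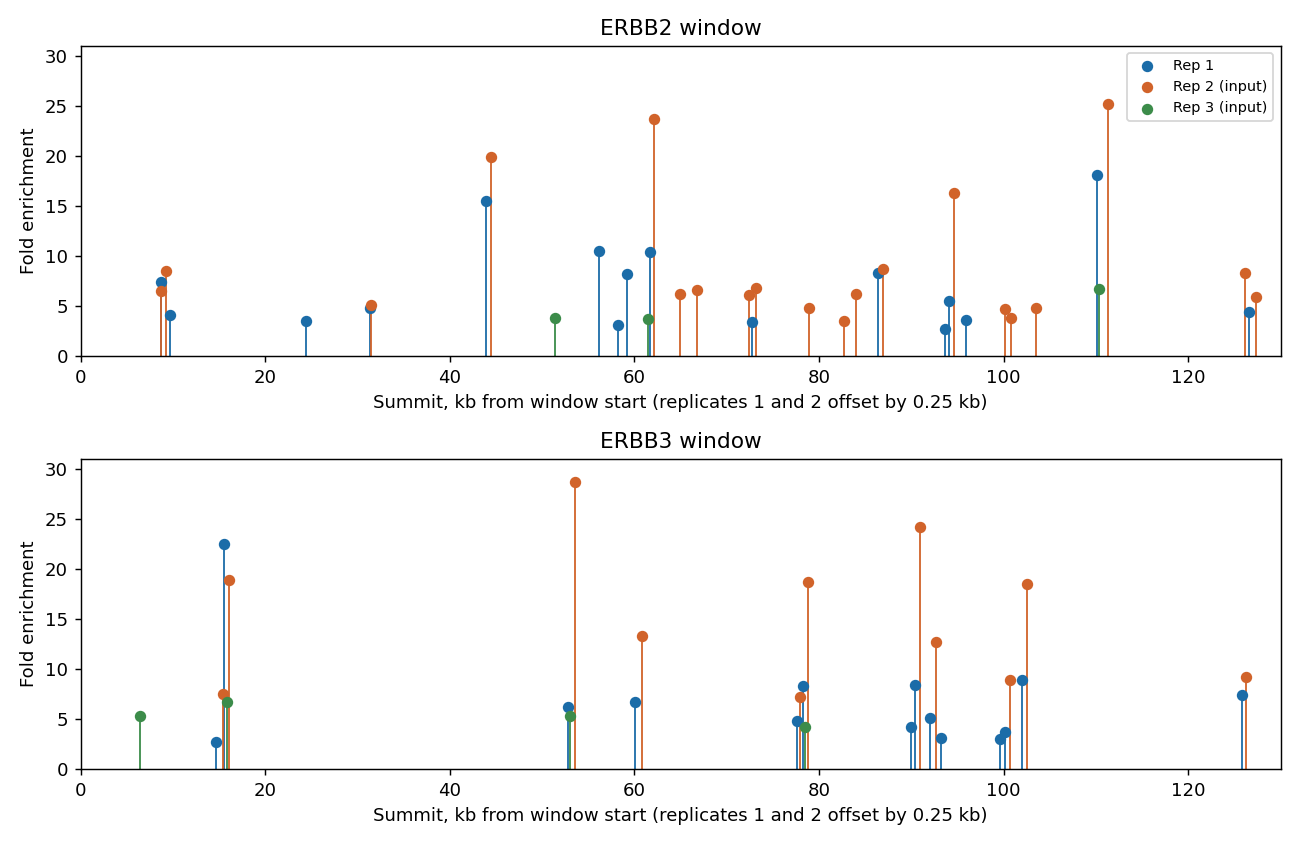
Fold enrichment of each peak (points on stems) by the position of its summit in the ERBB2 (top) and ERBB3 (bottom) windows, in kb from the window's start, for replicates 1, 2 and 3 (Rep, replicate; replicates 1 and 2 are drawn 0.25 kb to each side). Replicate 2 reaches 25.2 in ERBB2 and 28.7 in ERBB3, replicate 1 reaches 18.1 and 22.5, and replicate 3 stays at 6.76 or lower.

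IgG and input are the background libraries of the study, and replicate 2 has lists against both. Of the 56 sites, 12 (21.4%, 11.6 to 34.4) were also called against IgG, against 23.2% of all replicated sites. Without replicate 1 the count was 5. By gene the 12 were 4 of 11 for ERBB3, 3 of 9 for ERBB2, 3 of 16 for IGF1R, 1 of 7 for INSR, 1 of 7 for EGFR and 0 of 6 for FLT1. Among the 8 sites of all 3 libraries, 5 were called (62.5%, 24.5 to 91.5), against 51.6% on all chromosomes. The leading ERBB3 site by replicate 1 fold and the leading INSR site were not among them.

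Sites called against IgG had a median replicate 2 fold over input of 18.9 (9.10 to 28.7), and the other 44 a median of 7.52 (3.57 to 18.9), with overlapping ranges. Both the call and this fold come from the replicate 2 library, so the values are a description. In replicate 1, another library, the medians were 9.91 (6.25 to 18.1) for the called sites and 4.52 (2.68 to 22.5) for the others, again with overlapping ranges. Over all chromosomes the replicate 2 medians were 18.7 and 7.89, and those of replicate 1 were 9.87 and 4.99. The 15 IgG peaks themselves were weak, with folds over IgG between 2.33 and 4.03 and a median of 2.87, against 3.10 in their whole list. A q of 0.05 or less was reached by 1 of the 15, against 21.5% of that list. It lay in the ERBB3 cluster, from 56510501 to 56511072, with a fold of 3.94 and a q of 0.0322. The other 14 had a q above that value.

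**Figure D4:**
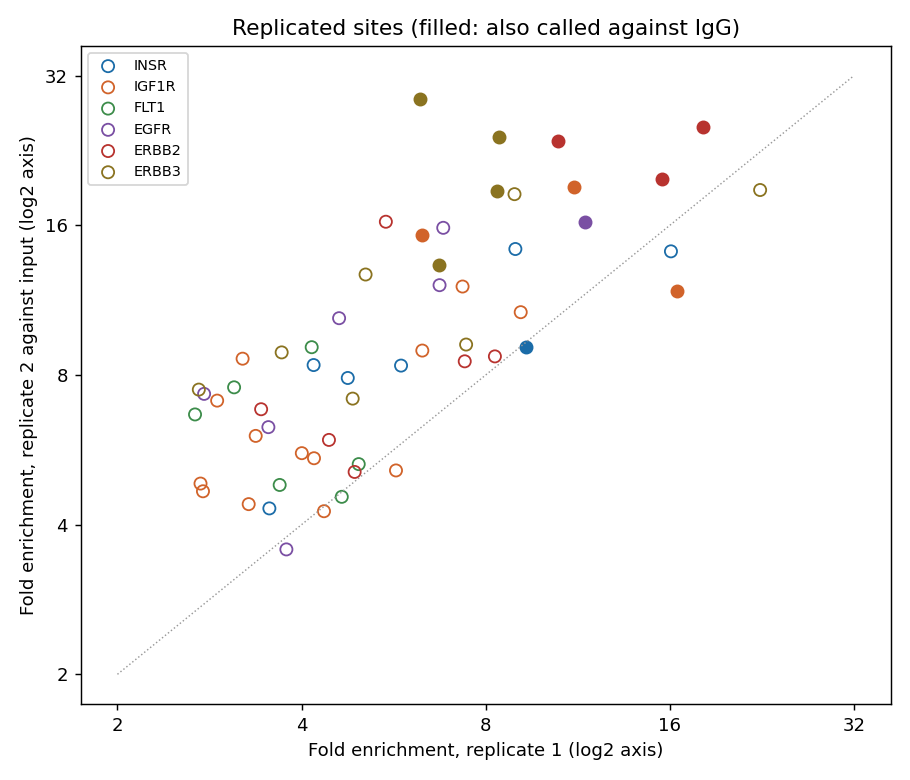
Fold enrichment of the 56 replicated sites in replicate 1 (horizontal) and replicate 2 (vertical), both on log2 axes, coloured by window, with filled points for the 12 sites also called against IgG and a dotted line of equal folds. Points lie above the line at 48 sites, and filled points start at a replicate 2 fold of 9.10.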

How the data were processed

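The submitters' processing notes list the aligners BWA and Bowtie2, CASAVA 1.4, MACS2, and hg19 and GRCh37, with no roles, threshold or pooling. In the 6 peak lists the authors deposited, each peak has a fold enrichment (ratio over local background), a −log10 p and −log10 q, and a summit offset. Label spelling tied 5 lists to libraries. Of the other, only positions and folds were used (3 columns unused). From these, peaks were counted by window, merged at 1 bp and stitched at 10 kb with Python 3.11.15, and intervals computed with SciPy 1.17.1. Counts equalled those of bedtools 2.31.1 in 48 of 48 comparisons, and the code was tested on simulated lists. Densities and tiles use each chromosome's stretch between its outermost peaks, 2999.1 Mb in all, gaps included.

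Members, lists and rules were chosen with earlier results of these data known. Sites named are those of all 3 libraries and, per window, the 3 with the highest lower fold of replicates 1 and 2; other clusters of at least 3 sites were named after their values were seen. Other receptor tyrosine kinases and summit motifs, planned for an hg19 reference, were not analysed here. The written rule printed sequence only from the files' build; the GRCh38 promoters depart from it and were chosen after the counts were seen.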

Additional observations from a re-analysis of the deposited data

Results flagged for a closer look

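One HOXB13-K13ac peak list, called against input, could not be tied to a library by its labels. Its peaks were used with those of the other lists to set the chromosome stretches behind the densities. Otherwise it entered none of the comparisons above. It had 80 of its 36205 peaks in the windows, with no list against IgG to set beside it. By window it held 22 peaks for ERBB2, 13 for ERBB3, 21 for IGF1R, 10 for EGFR, 8 for INSR, 6 for FLT1, 0 for KDR and 0 for TEK. Its peaks met 47 of the 56 replicated sites, against 23508 of 27046 on all chromosomes. Its highest window fold was 17.8, in ERBB3, followed by 17.3 in ERBB2. Its IGF1R peak from 99192988 to 99194578 has the same start and end as a replicate 2 peak, and its INSR start at 7178815 is also a replicate 2 start. Replicate 2 peaks also share its IGF1R start at 99190260, its IGF1R end at 99273105 and its INSR end at 7198147. Most of its other starts and ends in the windows differed from those of replicate 2. Whether this list shares a library with a replicate was not tested.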

How the results depend on the processing

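The ratio of window to genome density was 3.27, with an interval of 2.47 to 4.24 from the count of 56 sites. It lay between 2.62 and 3.48 under every alternative run, including without replicate 1, 2 or 3 (2.62 to 3.30). The ratios without replicate 1 and without replicate 2 rest on only 8 sites each, so their own counting error is larger. Leaving out replicate 3 could remove none of the 56 sites, since all hold peaks of replicates 1 and 2. Counts moved more. Leaving out 1 library gave 8 to 56 replicated sites, 0 to 6 clusters and 5 to 12 sites called against IgG. Without replicate 1 or 2 a site must then hold a replicate 3 peak. Without replicate 2 no IgG count was made, since that list is its own. Requiring summits 100 bp apart or less left 34 replicated sites, 4 of all 3 libraries and 1 cluster. Sharing 0.5 of both widths gave 0 sites of all 3 libraries and 3 clusters. With the 18232 strongest peaks of each list there were 29 sites and 2 clusters. A −log10 q of at least 5 left 2 sites of all 3 libraries and 0 called against IgG, since no IgG peak there reached it, and an IgG q of 0.05 or less left 1. Stitching within 5 kb gave 3 clusters, and within 20 kb it gave 9. With the unassigned list in place of replicate 3 there were 71 replicated sites and 9 clusters, and 47 sites were in all 3 lists. Whether that list is independent of replicate 2 was not tested, so its counts may not show further replication. KDR and TEK had 0 sites throughout. No alternative could have added one, since replicates 1 and 2 had 0 peaks there and a site needs peaks of at least 2 lists. For the 6 windows with sites, 33 of 54 counts stayed within 1.5 times the reported one, 20 were lower and 1 (ERBB2 with the unassigned list, 16) higher. Unknown depth limits all counts. No paired analysis was possible because the results are peak counts without a test and the IgG and input libraries have no lists of their own here.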
